A study of Mus musculus with 8 samples.

Results

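The genes of 9 transcription factors that set regional identity along the intestine were followed across cell types and between genotypes: Gata4, Gata5, Gata6, Cdx1, Cdx2, Hnf4a, Hnf4g, Onecut2 and Pdx1. They were taken by symbol and make up 9 of the 27998 genes in the count matrices, each with 1 row. In GRCm38 (mm10) Gata4 lies at chr14:63198922-63271692, Gata5 at chr2:180325133-180334699, Cdx2 at chr5:147300805-147307270 (all on the minus strand), Hnf4a at chr2:163506808-163572910, Hnf4g at chr3:3508030-3658052 and Pdx1 at chr5:147269959-147275848 (all on the plus strand). The cells had been sorted for the epithelial surface protein EpCAM from small intestinal crypts of adult mice and profiled by droplet-based single-cell RNA sequencing. KO mice (C57BL/6) lacked ieCtnnb1, an enhancer upstream of Ctnnb1, on both alleles. The controls labelled WT carried, per the study, a LacZ reporter under that enhancer at the H11 locus. Although 4 samples are listed for each genotype, its counts form 1 pooled matrix in which no cell can be tied to a listed sample, and the sources differ on how many animals were pooled. Each genotype was thus 1 sample, no test between genotypes was possible, and every interval below is a 95% interval that covers counting error only.

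GATA4, GATA5 and GATA6 are zinc-finger proteins that bind the same short DNA word. GATA4 is known for its presence in the duodenum and jejunum and its absence from the terminal ileum, where genes of bile acid uptake are active. CDX1 and CDX2 are caudal-type homeobox proteins, CDX2 being the factor that keeps the intestine from taking a gastric fate, HNF4A and HNF4G are related nuclear receptors that drive enterocyte genes, ONECUT2 is a homeobox protein of the proximal small intestine, and PDX1 is the homeobox factor of the pancreas and duodenum.

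The stretch before the annotated start of a gene (250 bases before it to 50 after it) was given by RefSeq (GRCm38.p6) for 4 of the 9 members, Hnf4a with 2 starts, and was searched on both strands for the word AGATAA, the word TGATAA, the word AGATAG and the word TGATAG (all bound by GATA proteins), for TTTATNG (bound by CDX proteins) and for CAAAGTC (the core of a site of HNF4 proteins). Of all 32851 such promoters, 29.8% held a GATA word, 10.9% the CDX word and 4.44% the HNF4 word. Among the members only the first promoter of Hnf4a held a match, a GATA word that began 52 bases before the start, whereas the second promoter of Hnf4a and those of Gata5 (chr2:180334630-180334929, minus strand), Cdx2 (chr5:147307200-147307499, minus strand) and Pdx1 (chr5:147269847-147270146, plus strand) held none. The first Hnf4a promoter is shown because it is the member promoter with a match, and that of Slc10a2, the ileal bile acid transporter, because it had the highest KO to WT ratio of the distal genes described further on. It held 1 GATA word, 184 bases before the start, and 3 CDX words, 175, 62 and 52 bases before it. Capitals mark the matches, none of which overlap, and a match is a description of the letters and not a binding site.
Hnf4a, chr2:163506607-163506906, plus strand: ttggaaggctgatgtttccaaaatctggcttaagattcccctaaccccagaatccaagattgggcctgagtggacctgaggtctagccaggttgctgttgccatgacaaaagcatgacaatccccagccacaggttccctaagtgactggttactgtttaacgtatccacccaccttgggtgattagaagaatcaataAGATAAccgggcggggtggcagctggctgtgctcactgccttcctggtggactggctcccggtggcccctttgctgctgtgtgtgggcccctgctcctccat
Slc10a2, chr8:5105238-5105537, minus strand: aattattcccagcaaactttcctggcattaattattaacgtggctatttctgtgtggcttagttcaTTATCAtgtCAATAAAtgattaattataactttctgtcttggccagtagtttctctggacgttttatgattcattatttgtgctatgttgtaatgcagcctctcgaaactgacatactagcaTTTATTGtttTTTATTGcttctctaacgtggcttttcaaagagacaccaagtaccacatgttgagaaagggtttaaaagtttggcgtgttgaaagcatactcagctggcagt

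Cells were kept with at least 200 genes, at most 30% mitochondrial UMIs (unique molecular identifiers, each standing for 1 captured transcript) and at least 1500 UMIs. This left 10588 of 15987 WT barcodes and 5881 of 12763 KO barcodes, with medians of 8545.5 and 14662 UMIs. The matrices held 134876816 and 123794575 UMIs in all, and they shared 57 barcodes, 13 of them among kept cells. Markers of 8 epithelial cell types, none of them a member, were summed per cell, and 9358 WT and 4546 KO cells passed the cut of 1 gate: crypt base columnar (CBC-like), transit-amplifying (TAC-like), Paneth (PC-like), goblet (GC-like), enteroendocrine (EEC-like), tuft (TC-like), and immature and mature enterocyte (imEC-like, mEC-like). The gates held between 86 and 3154 WT cells and between 50 and 1081 KO cells, and 2% to 28.6% of the cells of a gate lay at most 25% above its cut. Paneth transcripts were found in every gate at 4.57% to 13.7% of their level in PC-like cells, with medians of 302 and 182 Paneth marker UMIs per 10000 in WT and KO mEC-like cells. Markers of immune, blood, endothelial and stromal cells were at or near 0, the highest being 51 UMIs of Ptprc in all kept WT cells.

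Depth and transcript length bear on every ratio. KO cells were deeper than WT cells of the same gate (in mEC-like cells with medians of 8825 and 5429.5 UMIs), and the ratios of all genes followed transcript length: in mEC-like cells from the shortest to the longest quartile of genes the median log2 ratio of KO to WT went 0.14, -0.23, -0.56 and -0.87, against -0.36 over all genes. In mEC-like cells each member is therefore given beside the median of genes of its length quartile, where length is the summed exon length in GENCODE M21. The part of length, of depth and of free Paneth RNA in the members' ratios was not tested. Ctnnb1, whose enhancer was deleted, stood at 118 counts per 1000000 UMIs (CPM) in all kept WT cells and 91.7 CPM in KO cells, a log2 ratio of -0.36 (interval -0.40 to -0.33). Within 7 of the 8 gates its ratio lay between -0.88 and -0.66, and in EEC-like cells it was -0.24 (-0.58 to 0.10).

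**Figure D1:**
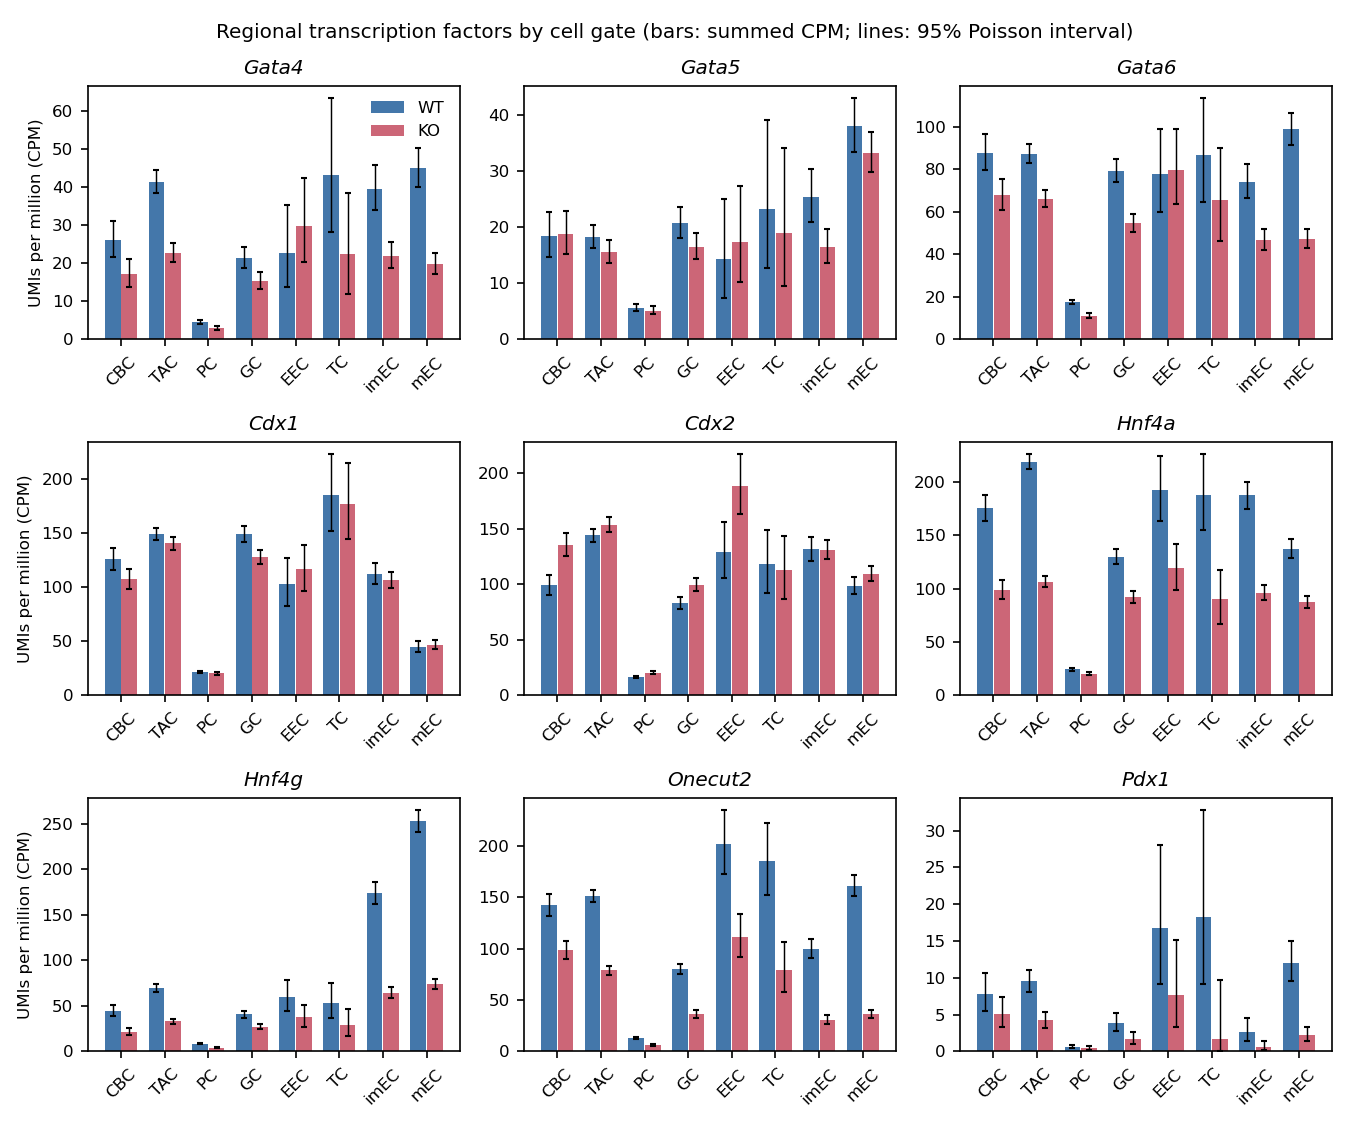
Level of each member (CPM, vertical axis) in 8 cell gates of WT (blue) and KO (red) cells, with lines for 95% Poisson intervals of the summed counts. Hnf4g stood highest in mEC-like cells of both genotypes, Cdx1 was low in mEC-like cells, and the KO bars of Hnf4a, Hnf4g and Onecut2 were below the WT bars in every gate.

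Gata4 was lower in KO than in WT cells in 7 of 8 gates, although with clusters in place of gates 2 of the 7 turned the other way (0.17 in GC-like and 0.34 in imEC-like cells) and the interval held 0 in PC-like cells (-0.25, -0.52 to 0.02). In mEC-like cells it stood at 45.01 CPM in WT (40.0 to 50.4) and at 19.8 CPM in KO (17.2 to 22.8), from 296 and 199 UMIs, so the intervals were apart and the KO level was 2.27-fold lower, a log2 ratio of -1.18 (-1.45 to -0.92). Per cell this was 0.246 UMIs in WT and 0.184 in KO. Genes of its length quartile had a median of -0.23. In WT the level was near 40 CPM in 4 gates whose intervals overlap, namely mEC-like, TC-like (43.3), TAC-like (41.5) and imEC-like cells (39.6), and lower in CBC-like (26.1), EEC-like (22.7) and GC-like cells (21.4). In KO it was at 22.8 CPM in TAC-like, 22.0 in imEC-like, 17.2 in CBC-like and 15.3 in GC-like cells, all with intervals that overlapped with that of mEC-like cells. EEC-like cells went the other way, at 22.7 CPM in WT and 29.9 in KO, but the ratio rests on 19 and 31 UMIs and its interval spans 0 (-0.47 to 1.30).

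Gata6 was also lower in KO enterocytes. In mEC-like cells it stood at 98.8 CPM in WT (91.4 to 107) and 47.4 CPM in KO (43.3 to 51.9), 2.08-fold lower, with a log2 ratio of -1.06 (-1.23 to -0.89) beside -0.56 for genes of its length. In WT the mEC-like level was the highest by value, with an interval that overlapped those of CBC-like (87.9 CPM), TAC-like (87.5 CPM) and TC-like cells (86.6 CPM), whereas in KO it was below the levels of CBC-like (68.0 CPM) and TAC-like cells (66.2 CPM), with intervals apart. CBC-like cells had a log2 ratio of -0.37 and TAC-like cells one of -0.40, beside -0.44 and -0.56 for genes of its length. EEC-like cells showed 77.7 and 79.9 CPM, with overlapping intervals.

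Gata5 differed from the other GATA genes. It was highest in mEC-like cells of both genotypes, at 38.0 CPM in WT (33.4 to 43.0) and 33.3 CPM in KO (29.8 to 37.0), and the interval of the ratio held 0 (log2 ratio -0.19, -0.43 to 0.05). Between 14.3 and 25.4 CPM were found in the other WT gates except PC-like cells, and between 15.6 and 19.0 CPM in the other KO gates except PC-like cells. The interval lay below 0 in imEC-like cells (25.4 and 16.4 CPM, -0.62, -1.003 to -0.25) and in GC-like cells (-0.33, -0.61 to -0.05). The latter turned to 0.17 with clusters and to 0.0033 with log-normalised means, so that no direction is given for GC-like cells. Measured from the median of genes of like length, the mEC-like ratio was 0.03 for Gata5, -0.50 for Gata6 and -0.96 for Gata4.

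In mEC-like cells Cdx1 and Cdx2 had the highest ratios of the members. In these cells Cdx1 stood at 44.9 CPM in WT and 46.7 CPM in KO (log2 ratio 0.06, -0.15 to 0.27) and Cdx2 at 98.5 CPM in WT and 109 CPM in KO (log2 ratio 0.15, 0.01 to 0.29). Cdx1 was highest in TC-like cells (185 and 177 CPM) followed by TAC-like cells (149 and 140.4 CPM) and GC-like cells (149 and 128 CPM). By CPM, mEC-like cells had less of it than any other gate but PC-like cells in both genotypes. Its log2 ratios in CBC-like (-0.22), TAC-like (-0.09) and GC-like cells (-0.22) had intervals below 0 and turned to 0.06, 0.29 and 0.0722 once the median of all genes was subtracted, so that no direction is given for them. Cdx2 was higher in KO in CBC-like cells, at 99.4 CPM in WT (90.6 to 109) and 136 CPM in KO (126 to 146), a log2 ratio of 0.45. The same held for EEC-like cells, at 129 CPM (106 to 156) and 189 CPM (163 to 217). The ratio was 0.28 in PC-like, 0.26 in GC-like and 0.09 in TAC-like cells, and with clusters in place of gates these were 0.89, 1.05 and -0.0018. In imEC-like cells Cdx2 stood at 132 CPM in WT and 131 CPM in KO, and in TC-like cells at 118 and 113 CPM, with intervals that held 0 for both ratios. Both are short genes, of 1750 and 2261 bases, and their ratios in mEC-like cells lay -0.08 and 0.02 from the median of genes of like length. The EEC-like log2 ratio of Cdx2 was 0.55, beside 0.49 for genes of its length. In CBC-like, PC-like, GC-like and TAC-like cells that median was 0.23, 0.20, 0.29 and 0.23. Over all kept cells Cdx2 had the highest log2 ratio of the 9 members, at 0.58 (0.54 to 0.62), with 56.3 CPM in WT and 84.1 CPM in KO. Genes of its length had a median of 0.49 over the same cells. PC-like cells, where Cdx2 was low by CPM, made up 3154 of the 10588 kept WT cells and 923 of the 5881 kept KO cells.

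Hnf4a was lower in KO in every gate by the summed counts. The WT level was highest by value in TAC-like cells, at 219 CPM (212 to 226), and the KO level there was 107 CPM (102 to 112), 2.05-fold lower (log2 ratio -1.04, -1.12 to -0.95). In mEC-like cells it stood at 137 CPM in WT (128 to 147) and 87.6 CPM in KO (81.9 to 93.5), the log2 ratio being -0.65 (-0.78 to -0.51), beside -0.56 for genes of its length and -0.28 once the median of all genes was subtracted. The WT levels of the other gates ranged from 130.1 CPM in GC-like to 192 CPM in EEC-like cells, leaving out PC-like cells, and the KO levels from 90.0 to 119 CPM. In WT the TAC-like interval lay above those of CBC-like (175 CPM, 164 to 188) and imEC-like cells (188 CPM, 175 to 201), and overlapped with those of EEC-like and TC-like cells. In KO it overlapped with those of CBC-like and imEC-like cells. In PC-like cells the log2 ratio of -0.26 turned to 0.35 with clusters in place of gates, as did that of -0.50 in GC-like cells to 0.12 (0.01 to 0.23), and in EEC-like cells the log2 ratio of -0.69 (-1.04 to -0.34) turned to a difference of 0.033 in the means of log-normalised values.

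Hnf4g was highest in enterocytes. In WT it went from 44.6 CPM in CBC-like and 69.4 CPM in TAC-like cells to 173 CPM in imEC-like (162 to 186) and 252 CPM in mEC-like cells (240.4 to 265). In KO the same gates stood at 21.8, 33.1, 64.4 and 73.9 CPM, the last with an interval of 68.7 to 79.4. The mEC-like level was 3.41-fold lower in KO, a log2 ratio of -1.77 (-1.90 to -1.65), and 1.38 UMIs per cell in WT stood against 0.686 in KO. The log2 ratio was -1.43 in imEC-like, -1.07 in TAC-like and -1.03 in CBC-like cells. Hnf4g has a summed exon length of 2630 bases, in the shortest quartile of genes, whose median in mEC-like cells was 0.14, so that its distance to genes of like length was -1.91.

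Onecut2 and Pdx1 had the lowest ratios of the 9 members in mEC-like cells. Onecut2 stood at 161 CPM in WT (152 to 171) and 36.0 CPM in KO (32.3 to 39.9), 4.48-fold lower, a log2 ratio of -2.16 (-2.34 to -1.99). It is the longest of the members, at 16234 bases, and genes of its length had a median of -0.87. Its ratio was -1.70 in imEC-like cells and between -1.22 and -0.53 in the other gates. In CBC-like and TAC-like cells it was -0.53 and -0.94, beside -0.74 and -0.89 for genes of its length. With clusters in place of gates it was -0.0208 in PC-like cells (-0.19 to 0.15) and -0.13 in GC-like cells (-0.28 to 0.01), and turned to 1.28 in imEC-like cells. In WT it was highest in EEC-like cells (202 CPM, 173 to 235) and TC-like cells (185 CPM, 152 to 223), which overlap. In KO the mEC-like level was below that of CBC-like (98.6 CPM) and TAC-like cells (78.8 CPM), with intervals apart. In WT the mEC-like interval overlapped with those of CBC-like (142 CPM, 132 to 153) and TAC-like cells (151 CPM, 146 to 157). Pdx1 was the sparsest member. In mEC-like cells 79 UMIs gave 12.0 CPM in WT (9.51 to 14.97) and 22 UMIs gave 2.19 CPM in KO (1.37 to 3.32), 5.48-fold lower, with a log2 ratio of -2.45 (-3.21 to -1.76), beside 0.14 for genes of its length. Its WT levels in TC-like (18.3 CPM), EEC-like (16.7) and mEC-like cells had overlapping intervals, and 9.51 CPM were found in TAC-like cells against 4.21 in KO. With clusters in place of gates the mEC-like log2 ratios were -3.27 for Onecut2 and -6.74 for Pdx1, where a cluster of 144 KO cells led by Fabp1, Rbp2 and Apoa4, genes that also led the named WT cluster, was left out because it held too few mEC markers for the name.

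All 9 members had low levels by CPM in PC-like cells. They went from 0.608 CPM for Pdx1 to 24.5 CPM for Hnf4a in WT and from 0.422 to 20.4 CPM in KO. The cells of this gate were deep, with medians of 22816 UMIs in WT and 45878 in KO, and counts per cell were not low for every member. Cdx1 stood at 0.479 UMIs per WT and 0.886 per KO cell, against 0.245 and 0.434 in mEC-like cells. Hnf4g stood at 0.195 and 0.189, against 1.38 and 0.686. Paneth marker genes made up a median of 3646 of 10000 UMIs of WT cells in that gate and 3403 in KO.

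Counted over the members, 5 of 9 were lower in KO by 2-fold or more in mEC-like cells (Gata4, Gata6, Hnf4g, Onecut2 and Pdx1), beside 18.4% of the 8856 genes with at least 50 UMIs there, and 0 of 9 were higher by 2-fold or more, beside 2.68%. The median log2 ratio of the 9 was -1.06. In TAC-like cells 3 of 9 were lower by that much (Hnf4a, Hnf4g and Pdx1), beside 17.7% of genes. In CBC-like cells 1 of 9 was (Hnf4g), beside 11.8%, in PC-like cells 2 of 9 (Hnf4g and Onecut2), beside 10.8%, and in GC-like cells 2 of 9 (Onecut2 and Pdx1), beside 15.5%. In imEC-like cells 8 members passed the minimum of 50 UMIs and 2 were lower by 2-fold or more (Hnf4g and Onecut2), beside 16.8%. In TC-like cells 5 passed and 2 were lower (Hnf4a and Onecut2), beside 11.4%, and in EEC-like cells 7 passed and 0 were, beside 14.4%. With clusters in place of gates the log2 ratios of the members so counted were -0.92 in CBC-like cells (Hnf4g), -0.41 and -0.0208 in PC-like cells (Hnf4g and Onecut2), -0.13 and 0.0627 in GC-like cells (Onecut2 and Pdx1) and -0.50 and -0.59 in TC-like cells (Hnf4a and Onecut2), each short of 2-fold, and Onecut2 in imEC-like cells turned to 1.28. With gates cut at 2 times the share, Hnf4a and Pdx1 in TAC-like cells were at -0.95 and -0.80. The counts outside mEC-like cells thus depend on how the cells were chosen. The mEC-like count depends on the scale. Once the median of all genes was subtracted, Gata4 (-0.82) and Gata6 (-0.69) were short of 2-fold there. Hnf4g (-1.41), Onecut2 (-1.80) and Pdx1 (-2.09) were still lower by more than 2-fold. The share of genes lower by 2-fold or more in mEC-like cells was 3.39% in the shortest length quartile, which holds Hnf4g and Pdx1. It was 41.2% in the longest, which holds Onecut2. The EEC-like gate was unlike between genotypes, with medians of 2958 UMIs per WT cell and 11757 per KO cell and of 388 and 83.2 marker UMIs per 10000.

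**Figure D2:**
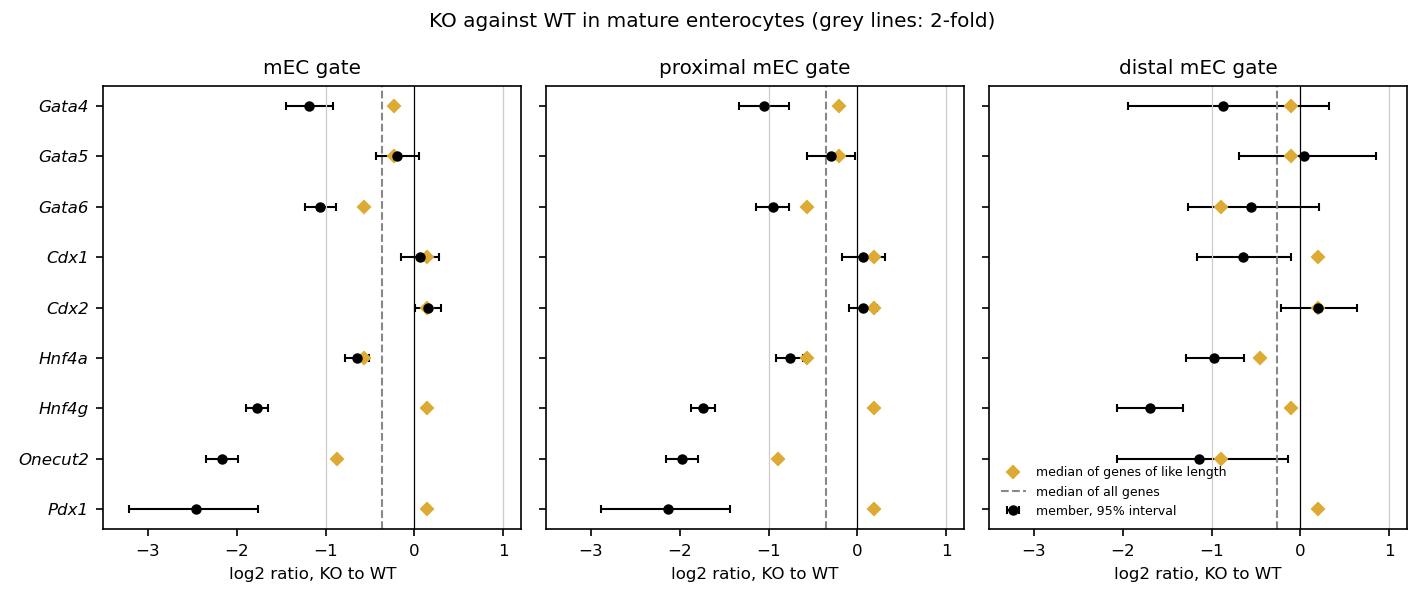
Log2 ratio of KO to WT (horizontal axis) for each member in mEC-like cells and in their proximal and distal subsets, with 95% intervals, the median of genes of the same length quartile (diamonds), the median of all genes (dashed) and 2-fold (grey). Hnf4g, Onecut2 and Pdx1 lie farthest left in the mEC and proximal panels, while Cdx1, Cdx2 and Gata5 lie near their diamonds there. Hnf4a also lies near its diamond in the mEC panel. Pdx1 has no point in the distal panel, where it had 0 UMIs.

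The more distal gene profile of KO mEC-like cells was set beside these values with lists of 16 distal and 22 proximal enterocyte genes. The lists were chosen with earlier results of these data known. Counts on them therefore describe these cells and are no independent test. In mEC-like cells 15 of the 16 distal genes were higher in KO and 11 were higher by 2-fold or more, beside 2.68% of all genes, with a median log2 ratio of 1.18 beside -0.36 over all genes. Slc10a2, the ileal bile acid transporter, stood at 15.8 CPM in WT and 138 CPM in KO (log2 ratio 3.12). Fabp6, the ileal bile acid binding protein, had a log2 ratio of 2.65, and Fam151a one of 2.24. The lowest of the list were Slc7a9, a subunit of the cystine transporter (0.70), Clec2h (0.16) and the peptidase gene Enpep (-0.48). Of the proximal list 21 genes passed 50 UMIs, with a median of -0.54. Of these 5 were lower in KO by 2-fold or more, beside 18.4% of all genes, and 1 was higher by that much, beside 2.68%, so that the shares lay near those of all genes. Slc40a1, the iron exporter ferroportin, had the lowest ratio (-2.82), followed by Mme (-1.35) and Xdh (-1.17), whereas the apolipoprotein gene Apoc3 (1.39), Ms4a10 (0.40) and Apoa4 (0.15) were the highest. In imEC-like cells 13 distal genes passed 50 UMIs, with a median of 0.29 beside -0.31 over all genes. Of these 8 were higher and 5 lower in KO. By 2-fold or more 0 were higher, beside 1.04% of all genes, and 1 was lower, beside 16.8%. The proximal list had a median of -0.62 there, with 8 of 21 genes lower by 2-fold or more. The mEC-like cells also differed in the share of their own markers, with medians of 126 marker UMIs per 10000 in WT and 253 in KO, and the part of this in the ratios was not tested.

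Each cell was given a regional score, the log2 ratio of its distal to its proximal list UMIs per 10000 after adding 1 to each, which uses no member. Genes weigh in it by their UMIs, so that it rests mainly on a few. In mEC-like cells Fabp6 had 14558 UMIs in WT and 139112 in KO, and Clec2h, the next distal gene, 5564 and 9506. Of the proximal list Fabp1 (94537 and 119585) and Rbp2 (59053 and 92777) had the most. The scores of mEC-like cells had a main set below 0 in both genotypes. In KO the cells per step of 0.5 rose again above 0, from 16 at 0 to 41 at 3.5. In WT they stayed low and flat above 0, at 12 or fewer per step, with no clear second set. Cells at 0 or above were called distal in both genotypes. There were 98 distal cells of 1204 in WT (8.14%, exact binomial interval 6.66% to 9.83%) and 350 of 1081 in KO (32.4%, 29.6% to 35.3%). Within 1 unit of the cut lay 4.40% of WT and 9.34% of KO cells. The list genes themselves set the score and are not compared between its classes. Since the lists were chosen with earlier results of these data known, the shares of distal cells are a description too.

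**Figure D3:**
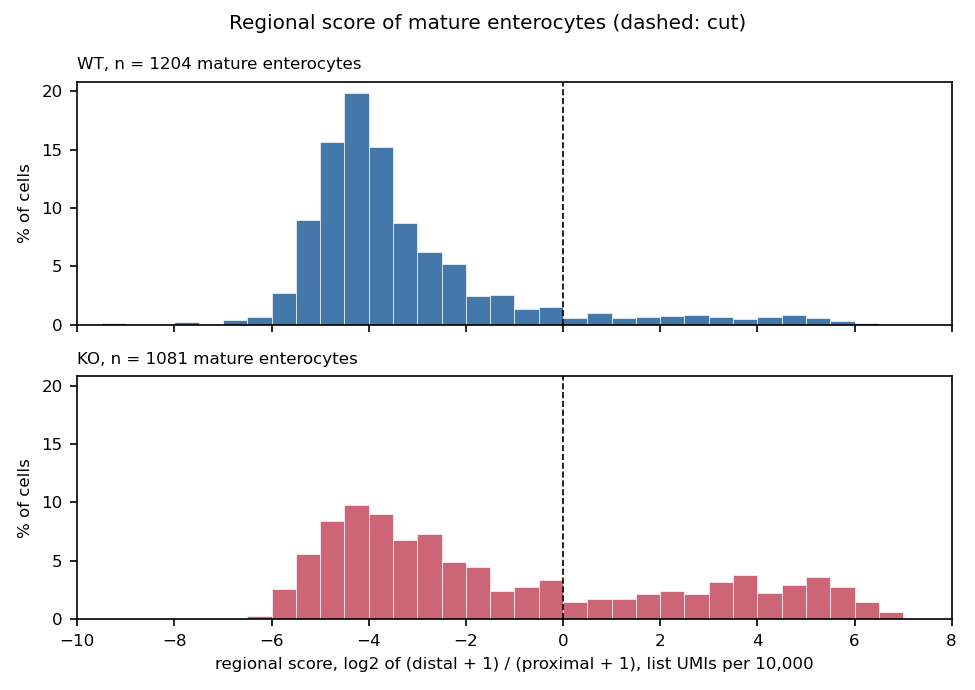
Share of mEC-like cells (vertical axis, %) by regional score (horizontal axis, in steps of 0.5 log2 units) in WT and KO, with the cut dashed. Both genotypes have a main set below the cut, and 8.14% of WT and 32.4% of KO cells lie at or above it.

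Onecut2, Gata4, Gata6 and Pdx1 were lower in distal than in proximal mEC-like cells of both genotypes, with few UMIs in the 98 distal WT cells. Onecut2 stood at 171 CPM in proximal and 30.7 CPM in distal WT cells (log2 ratio of distal to proximal -2.48, -3.35 to -1.72) and at 43.6 and 13.9 CPM in KO (-1.65, -2.19 to -1.15). Gata4 stood at 46.7 and 21.9 CPM in WT (-1.09, -2.17 to -0.19) and at 22.6 and 12.0 CPM in KO (-0.92, -1.52 to -0.36). Gata6 showed 103 and 46.0 CPM in WT (-1.16) and 53.0 and 31.3 CPM in KO (-0.76). Pdx1 had 79 UMIs in proximal and 0 in distal WT cells, where the floor of 3 UMIs equals 6.57 CPM. Against that floor it was at least 1.96-fold lower, and the 95% interval of the log2 ratio, which also covers the counting error of the 79 UMIs, reached up to -0.64. In KO it had 22 and 0 UMIs, at least 2.55-fold lower against the floor, with an interval that reached up to -0.93.

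Hnf4a and Cdx1 were higher in distal cells. Hnf4a stood at 130.2 CPM in proximal and 232 CPM in distal WT cells (log2 ratio 0.83, 0.53 to 1.13) and at 76.7 and 119 CPM in KO (0.63, 0.43 to 0.83). Cdx1 stood at 41.7 and 87.6 CPM in WT (1.07, 0.55 to 1.56) and at 43.5 and 56.0 CPM in KO (0.36, 0.07 to 0.65). Cdx2 showed 97.2 and 116 CPM in WT, with an interval that held 0, and 101 and 133 CPM in KO (0.40, 0.21 to 0.58). Hnf4g was alike in both sets within its interval, at 255 and 215 CPM in WT (-0.25, -0.56 to 0.05) and 76.5 and 66.4 CPM in KO (-0.21, -0.46 to 0.04). The sets of Gata5 overlapped in WT (37.9 and 39.4 CPM) and gave 0.40 in KO (0.05 to 0.74).

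The KO to WT ratios were then read within each set, whose median depths were 5491.5 UMIs in WT and 9610 in KO for proximal cells and 4679 and 7020 for distal cells. Median mEC marker UMIs per 10000 were 127 and 260.4 in proximal and 96.7 and 231 in distal cells. The sets were not matched in score, as 587 of 1106 proximal WT cells and 289 of 731 proximal KO cells lay below -4. The part of this in the ratios was not tested. In proximal cells Gata4 stood at 46.7 CPM in WT (41.5 to 52.5) and 22.6 CPM in KO (19.3 to 26.2), 2.07-fold lower, with a log2 ratio of -1.05 (-1.33 to -0.77). The ratio was -0.95 for Gata6, -0.76 for Hnf4a, -1.74 for Hnf4g, -1.97 for Onecut2 and -2.13 for Pdx1, each with an interval below 0, while Cdx1 and Cdx2 were both at 0.06 with intervals that held 0. Gata5 gave -0.30 (-0.57 to -0.03), which turned to 0.055 once the median of all genes was subtracted. Of the 9 members 4 were lower by 2-fold or more in proximal cells, beside 18.2% of genes. In distal cells 7 members passed 50 UMIs and 2 were lower by 2-fold or more (Hnf4g and Onecut2), beside 17.8%. Gata4 there rests on 10 and 31 UMIs and its interval held 0 (-0.87, -1.94 to 0.32). Hnf4g stood at 215 CPM in WT (174 to 262) and 66.4 CPM in KO (56.8 to 77.1), and Hnf4a at 232 CPM (190.2 to 281) and 119 CPM (106 to 133) with intervals apart for both. With clusters in place of gates the log2 ratio of Hnf4g there was -0.55 (-1.18 to 0.15), and with gates cut at 2 times the share that of Hnf4a was -0.14 (-0.72 to 0.49), so that neither held under both alternatives. Onecut2, at -1.14 from 14 and 36 UMIs, turned to 0.18 with gates cut at 2 times the share and was -4.19 with clusters. Cdx1 was at 87.6 and 56.0 CPM (-0.65, -1.16 to -0.10), and its ratio was -0.0048 (-0.84 to 0.97) with clusters.

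Weighting the KO levels of the proximal and distal sets by the WT mix of UMIs (6.94% from distal cells) moved the mEC-like log2 ratio of Gata4 from -1.18 to -1.04, that of Gata6 from -1.06 to -0.94, that of Onecut2 from -2.16 to -1.95 and that of Pdx1 from -2.45 to -2.13. That of Hnf4a moved from -0.65 to -0.79, since Hnf4a was higher in the distal set, and that of Hnf4g from -1.77 to -1.73. Cdx2 moved from 0.15 to 0.07 and Cdx1 from 0.06 to -0.02. The weighting uses only the proximal and distal sets and leaves differences in score within each set in place.

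**Figure D4:**
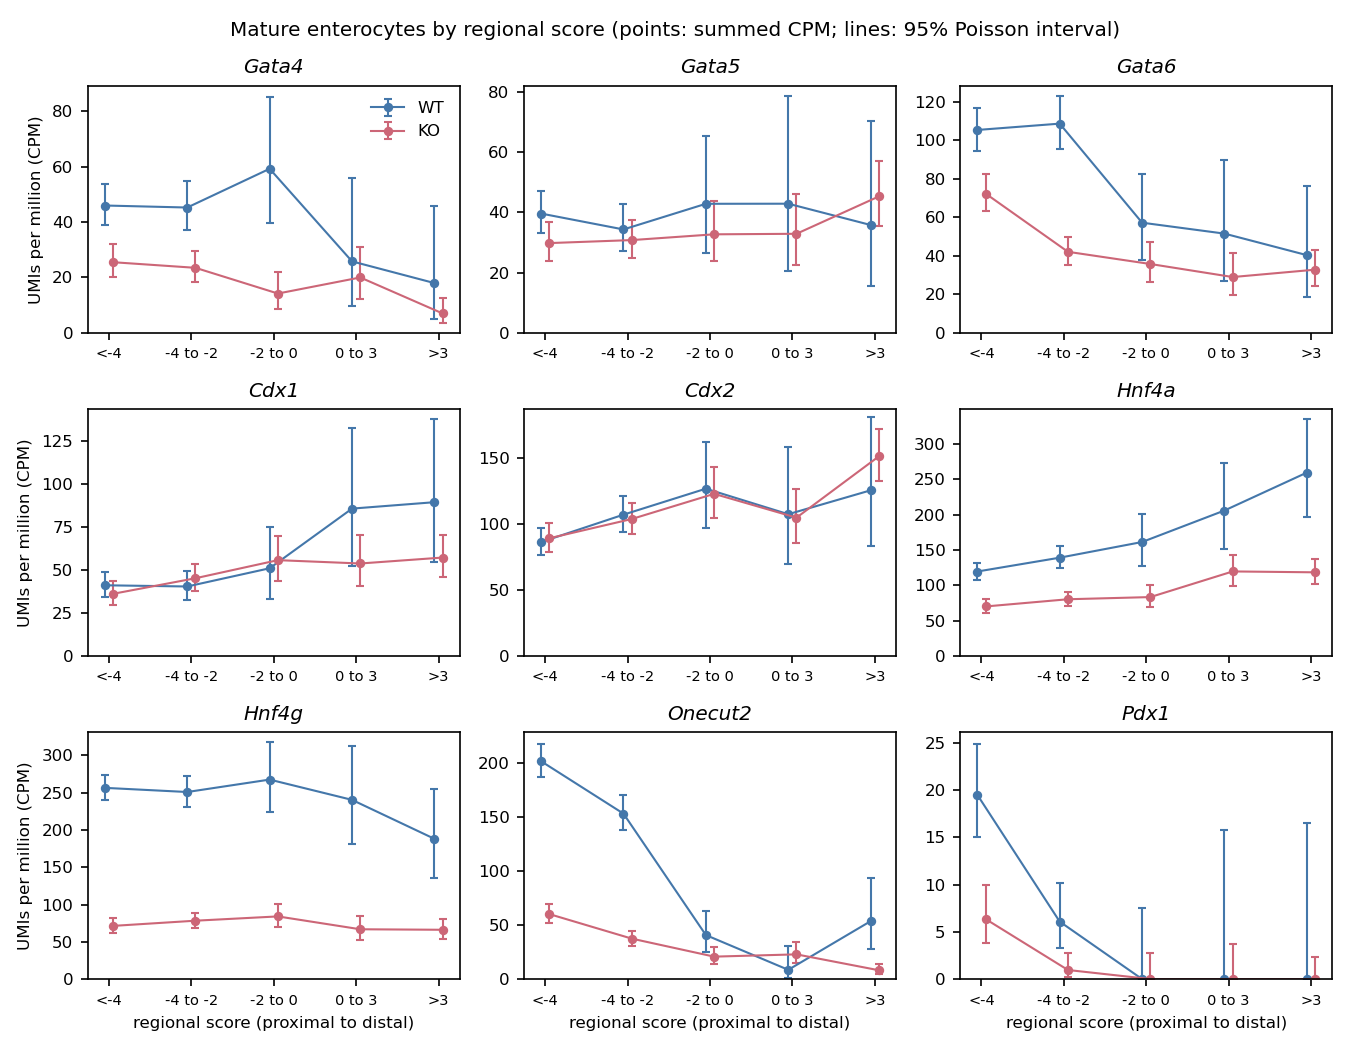
Level of each member (CPM, vertical axis) in mEC-like cells of 5 ranges of the regional score (horizontal axis, proximal to distal) in WT (blue) and KO (red), with 95% Poisson intervals. Hnf4a is higher toward the distal end in both genotypes, Onecut2 and Pdx1 are highest in the most proximal range, and the Hnf4g lines stay apart along the whole score.

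Over 5 ranges of the score, from the most proximal (587 WT and 289 KO cells) to the most distal (45 and 224 cells), Onecut2 in WT was at 202, 153, 40.8, 8.58 and 53.7 CPM, the last 3 values from 20, 2 and 12 UMIs. In KO it was at 60.3, 37.5, 20.8, 22.9 and 8.19 CPM. Pdx1 was found in the 2 most proximal ranges of each genotype, at 19.5 and 6.09 CPM in WT and at 6.36 and 0.963 CPM in KO, and had 0 UMIs in the other 3. Hnf4a went from 119.5 CPM at the proximal end to 259.7 CPM at the distal end in WT and from 70.0 to 118 CPM in KO. Hnf4g lay between 188 and 268 CPM in the WT ranges and between 66.1 and 84.0 CPM in the KO ranges, so that no KO interval reached a WT interval. Gata4 intervals were apart in the 3 ranges below the cut and overlapped in both ranges above it.

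In imEC-like cells 28.2% of WT and 38.5% of KO cells lay within 1 unit of the cut, more than in mEC-like cells. By that cut 45.5% of WT and 53.3% of KO cells were called distal. Among members with UMIs in both sets of WT, Onecut2 had the largest difference between them, at 162 and 21.8 CPM in WT (-2.89, -3.37 to -2.44) and at 52.1 and 10.5 CPM in KO (-2.31, -2.84 to -1.81), and Gata4 stood at 52.0 and 23.8 CPM in WT and at 29.96 and 14.4 CPM in KO. With clusters in place of gates, the KO to WT ratios of Gata4, Gata6 and Onecut2 in imEC-like cells turned to 0.34, 0.0483 and 1.28. The WT cluster of that name was led by Fabp6, a distal list gene, and the KO cluster by Gsdmc4 and Gsdmc2, while a KO cluster with Fabp6 among its leading genes took the mEC name.

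Of 22 other transcription factor genes of the intestine, 16 had at least 50 UMIs in mEC-like cells, with a median log2 ratio of -0.73. Of these 3 were lower in KO by 2-fold or more, near the 18.4% of all genes, and 0 were higher by that much. The lowest were the nuclear receptor genes Ppara (24.6 and 8.67 CPM, -1.51) and Nr5a2 (21.7 and 8.37 CPM, -1.38). The highest were Klf4 (58.1 and 85.6 CPM, 0.56), Prdm1 (0.47, from 18 and 38 UMIs) and Foxa3 (0.22, with an interval that held 0). Creb3l3, a member of both this and the proximal list, was at 231 and 224 CPM. Cdx4, Onecut1, Satb1 and Zfpm2 had 0 UMIs in mEC-like cells of both genotypes.

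The genes whose levels were most like those of each member over the 16 points (8 gates in each genotype) were ranked by Pearson's r of log2(CPM + 10) among 10848 genes. The points share 2 libraries and their depths, so the values are a description. For Hnf4g they were Sesn1 (0.994), Pcsk5 (0.980) and Rxra (0.976), the last the partner of many nuclear receptors. For Hnf4a they were Npepps (0.989), Ago2 (0.984) and Ppp2r5a (0.984), and for Cdx2 Ppp5c (0.985), Szrd1 (0.984) and Thoc7 (0.981). Cdx1 was nearest to Hmgn5 (0.969), Mphosph6 (0.968) and Pithd1 (0.968). Among the GATA genes, Gata4 was nearest to Txlng (0.968), Hadha (0.964) and Ccdc50 (0.962), Gata5 to Zfand6 (0.962), Acaa2 (0.956) and Reep3 (0.951), and Gata6 to Gsk3b (0.975), Eif4h (0.972) and Nipbl (0.972). Hadha and Acaa2 encode enzymes of mitochondrial fatty acid oxidation. Onecut2 was nearest to Pard3 (0.970), Prosc (0.968) and Anapc4 (0.963), and Pdx1 to Ehbp1 (0.965), Prdm16 (0.932) and 2610021A01Rik (0.914).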

How the data were processed

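EpCAM-positive cells of small intestinal crypts had been captured with a 10x Genomics 3-prime kit (the labels name v2 chemistry, the methods v2 or v3). The authors made raw UMI counts per gene and barcode and deposited them as 1 filtered matrix per genotype. The file headers name Cell Ranger 4.0.0, whereas the submitters' processing notes name Cell Ranger 2.1.1 and build mm10. The gene annotation is not given in the sources used here. No column was left unmapped to a group.

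Counts were summed over the cells of a gate and given as CPM with exact Poisson intervals, and ratios of KO to WT with exact conditional binomial intervals (scipy 1.17.1, Python 3.11.15). These cover counting error only, and PCR or cell-to-cell spread is not in them. Per 10000 UMIs the gates required 2500 (Paneth), 400 (goblet), 30 (enteroendocrine), 10 (tuft) or 60 (mature enterocyte) marker UMIs, and cells in none of these 5 were then tested for 15 (transit-amplifying), 8 (crypt base columnar) or 6 (immature enterocyte). Cells in several gates (364 WT, 128 KO) or in none (866 WT, 1207 KO) were left out. Cuts and the minimum of 1500 UMIs were set after the data had been seen. Scrublet in scanpy 1.11.5 called 0 cells, so it had not worked, and doublets stayed in. The alternative without the highest Scrublet scores removed a larger share of WT than of KO cells and is thus no check on doublets. GENCODE M21 gave a length for 27645 of 27998 gene identifiers. Genes were counted as lower or higher at a 2-fold difference among those with at least 50 UMIs in both genotypes together.

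All 9 members were named in every gate. Of the distal, proximal and transcription factor lists the 3 genes with the highest and the 3 with the lowest ratio in mEC-like cells were named, and for each member with at least 200 UMIs the 3 genes most like it. An item that this rule names is not reported here. Members and lists were chosen with earlier results of these data known. Interval coverage was tested on simulated counts. The alternatives were other limits on cells, clusters from leidenalg 0.10.2, stricter gates, other denominators, thinning to 1000 UMIs, log-normalised means and other minimums for list genes.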

Additional observations from a re-analysis of the deposited data

Results flagged for a closer look

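With 1 matrix per genotype, no group held enough samples to look for one that stood apart. Barcodes outside the gates held more Cdx2 in KO than in WT. In barcodes with over 30% mitochondrial UMIs (2746 WT and 4105 KO) Cdx2 stood at 29.2 CPM in WT (23.8 to 35.4) and 46.9 CPM in KO (41.8 to 52.5). In kept cells that passed no gate (866 WT and 1207 KO) it stood at 79.1 CPM in WT (72.7 to 85.9) and 103 CPM in KO (98.9 to 108). The latter cells also enter the values over all kept cells, where genes of the length of Cdx2 had a median log2 ratio of 0.49. No median of genes of like length was taken in either set. The other 8 members had no KO interval above the WT interval in either set or in barcodes under 1500 UMIs.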

How the results depend on the processing

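No paired analysis was possible because each genotype was 1 pooled matrix whose cells carry no replicate number. Over 14 alternatives, 3 of them chosen after seeing the data, 838 of 1034 recomputed values stayed within the interval of the value in the report (list medians within 0.1, counts within 1.5-fold), 174 moved beyond it and 22 turned sign. Turns of sign were counted only for medians and for ratios whose interval in the report excluded 0. No value moved beyond it with the limits of 15% mitochondrial UMIs or 500 genes, without the minimum of 1500 UMIs, without shared barcodes, without genes above 1% of UMIs in the denominator, or with cells near the regional cut left out. With clusters, the mEC name left out the KO cluster led by Fabp1, Rbp2 and Apoa4 and took in a KO cluster with Fabp6 among its leading genes. The part of this in the mEC-like values with clusters was not tested. In mEC-like cells the log2 ratio of Gata4 was -1.47 with clusters in place of gates, -0.82 after subtracting the median of all genes and -0.16 as a difference of log-normalised means, a scale that compresses low levels. In proximal mEC-like cells it was -0.69 and -0.13 under the last 2. The ratio of Hnf4a was -0.44 after thinning, -0.47 with gates 2 times as strict, -0.28 after subtracting the median and -0.16 with log-normalised means. The median ratio of the other 7 members was -1.54 with clusters, -1.17 with stricter gates, -0.69 after subtracting the median and -0.0702 with log-normalised means. The median of the distal list was 2.12 with clusters, 1.36 after thinning, 1.54 after subtracting the median and 0.53 with log-normalised means. That of the proximal list was -1.08 with clusters, -0.68 after thinning, -0.67 with stricter gates, -0.42 without the highest Scrublet scores and -0.17 after subtracting the median. The count of other transcription factors lower by 2-fold or more was 5 without the highest Scrublet scores and 0 after thinning, where fewer genes reached 50 UMIs.

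With clusters in place of gates the ratio turned to -0.0018 for Cdx2 in TAC-like cells, 0.35 for Hnf4a in PC-like cells, 0.17 for Gata4, 0.17 for Gata5, 0.14 for Gata6, 0.61 for Cdx1, 0.12 for Hnf4a and 0.0627 for Pdx1 in GC-like cells, and 0.34 for Gata4, 0.0483 for Gata6 and 1.28 for Onecut2 in imEC-like cells. Stricter gates turned Onecut2 in distal mEC-like cells to 0.18 and left under 20 PC-like cells, which gave no value. Log-normalised means turned Cdx1 in TAC-like cells to 0.0295, Hnf4a in PC-like cells to 0.0017, Gata5 in GC-like cells to 0.0033, Cdx1 in GC-like cells to 0.0658, Hnf4a in EEC-like cells to 0.033 and Gata5 in proximal mEC-like cells to 0.0028. Subtracting the median of all genes turned Cdx1 to 0.06 in CBC-like, 0.29 in TAC-like and 0.0722 in GC-like cells, and Gata5 in proximal mEC-like cells to 0.055. The cause was not tested.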
